A study of Mus musculus with 22 samples.

Results

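A set of 5 genes of the NanoString mouse myeloid panel that are usually read as products of fibroblasts and of the matrix around them, Pdgfra, Col1a2, Col11a1, Hspg2 and Timp3, were followed in cells isolated from mammary tumours. They were chosen by name, with earlier results of these data known, as 5 of the 655 endogenous genes of the panel. All 5 lie among the 420 genes that were tested. Transcripts were counted through fluorescent barcodes without amplification, in 22 samples that the labels call G-MDSCs, granulocytic cells of the myeloid-derived suppressor type. Female FVB neu-N mice, transgenic for rat neu (HER2) under a promoter that the labels leave unnamed, were implanted at 7 to 8 weeks of age. Each mouse received 50000 NT2.5 cells, which derive from a mammary tumour that arose spontaneously, in the mammary fat pad. Treatment began 3 days later and lasted 3 weeks in every group. Vehicle mice (6 samples, named 1 to 4, V1 and V2) received methylcellulose and isotype antibodies. Entinostat, which inhibits histone deacetylases of class I, was given at 5 mg/kg by mouth each day to all the other groups: alone (4 samples), with anti-PD-1 (4), with anti-CTLA-4 (4) or with both antibodies, the triple combination (4). The antibodies, which block checkpoint receptors of T cells, were given at 100 µg per mouse 2 times a week. No group received an antibody without entinostat, and the labels do not say whether an anti-HER2 antibody was given to these mice. The cells were selected magnetically by Ly6G and passed over a column 2 times. Nothing in the labels says that each sample came from a separate mouse, so p-values measure the spread between these samples, which may be technical.

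Fibroblasts build the supporting matrix of a tissue, and in tumours they are activated and deposit fibrillar collagen. Pdgfra is a receptor tyrosine kinase for platelet-derived growth factors and a standard surface marker of fibroblasts. Col1a2 encodes a chain of type I collagen, the main fibrillar collagen of connective tissue, and Col11a1 a chain of type XI collagen, a minor fibrillar collagen known from cartilage and from activated fibroblasts of tumours. Hspg2 encodes perlecan, a heparan sulfate proteoglycan of basement membranes, including those under blood vessels. Timp3 encodes an inhibitor of metalloproteinases that stays bound to the matrix. None of the 5 is a marker of the Ly6G+ cells that were selected. In a bulk sample, fewer cells of a type and less RNA per cell cannot be told apart.

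The 4 genes whose levels passed the test in entinostat alone against vehicle are shown by the 250 bases before their annotated starts, since they moved in opposite directions. The sequences are those of RefSeq (GRCm38.p6, plus strand for all 4), printed 5′ to 3′ with matches to any of 3 motifs in capitals: the GC box GGGCGG, the CCAAT box CCAAT and the TATA box TATAAA, each searched on both strands, so that a match can read as the reverse complement.
Pdgfra (chr5:75152001-75152250): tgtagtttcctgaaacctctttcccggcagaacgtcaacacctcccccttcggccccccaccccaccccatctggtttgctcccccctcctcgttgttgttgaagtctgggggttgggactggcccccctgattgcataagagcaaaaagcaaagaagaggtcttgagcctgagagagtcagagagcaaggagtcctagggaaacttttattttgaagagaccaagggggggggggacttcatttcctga
Col11a1 (chr3:114030290-114030539): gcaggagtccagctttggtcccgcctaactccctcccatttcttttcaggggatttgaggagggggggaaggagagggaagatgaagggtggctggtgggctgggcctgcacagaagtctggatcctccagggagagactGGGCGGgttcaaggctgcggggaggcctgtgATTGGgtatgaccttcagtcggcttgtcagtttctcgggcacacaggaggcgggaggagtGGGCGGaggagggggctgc
Hspg2 (chr4:137468553-137468802): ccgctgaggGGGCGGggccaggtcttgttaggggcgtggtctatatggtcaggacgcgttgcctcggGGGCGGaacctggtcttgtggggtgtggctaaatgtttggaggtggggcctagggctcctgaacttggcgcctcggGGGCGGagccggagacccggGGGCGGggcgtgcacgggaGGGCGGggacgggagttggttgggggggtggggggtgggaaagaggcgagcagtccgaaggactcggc
Timp3 (chr10:86300162-86300411): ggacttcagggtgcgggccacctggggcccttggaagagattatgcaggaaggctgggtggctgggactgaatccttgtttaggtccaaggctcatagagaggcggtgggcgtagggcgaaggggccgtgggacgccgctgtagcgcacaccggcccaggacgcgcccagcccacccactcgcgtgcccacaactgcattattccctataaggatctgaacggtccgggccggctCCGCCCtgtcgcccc
The Pdgfra window held no match to the 3 motifs, at 54.4% G and C. The Col11a1 window held 2 GC boxes and 1 CCAAT box, at 62.4%. The Hspg2 window held 5 GC boxes and no other match, at 70% G and C. The Timp3 window held 1 GC box, at 65.6%. Of 32851 promoter windows of the same 250 bases, 32.7% held a GC box, 33.8% a CCAAT box and 12.4% a TATA box. These matches describe the letters only.

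Total barcode counts ran from 23296 to 443871 per sample, with a median of 179364, and 1 barcode count was worth 0.400 to 9.78 normalized counts. The library of 23296 counts is triple combination sample 2. The samples ran on 2 cartridges, as read from the scan names. Vehicle samples 1, 2 and 4, all entinostat and all entinostat plus anti-PD-1 samples and triple combination sample a were on cartridge 1, and the others on cartridge 2. By lane, triple combination sample a lay among vehicle samples and vehicle sample 3 beside triple combination samples. Of the genes that define the sorted cells, S100a9 was abundant, at 1959 to 24140 normalized counts, while Ly6g, the gene of the selection marker, exceeded every negative control of its sample in 2 of 22 samples. The median log2 fold change of the 420 tested genes against vehicle was 0.50 in entinostat alone, 0.29 in entinostat plus anti-PD-1, -0.13 in entinostat plus anti-CTLA-4 and 0.30 in the triple combination, so a change of 0 on the deposited scale is not the middle of the panel.

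Pdgfra had its lowest mean with entinostat alone. In vehicle the lowest sample held 207, the median was 323 and the highest sample held 362 normalized counts. The entinostat samples held 219.7, 172, 162 and 247. With anti-PD-1 added they held 235.0, 207, 223 and 183, with anti-CTLA-4 added 213 (sample a), 333 (1), 403 (b) and 382 (3), and in the triple combination 259.6 (a), 243 (b), 303 (2) and 198 (4). Of the vehicle samples, sample 2 at 207 stood alone inside the range of entinostat alone, and the other 5 lay above every entinostat sample. Sample a was the low one of the anti-CTLA-4 group, whose other 3 samples lay inside or above the vehicle range. Group means were 314 ± 56.5 in vehicle (SD, n = 6), 200.2 ± 40.3 in entinostat alone, 212 ± 22.5 with anti-PD-1, 333 ± 85.2 with anti-CTLA-4 and 251 ± 43.2 in the triple combination (n = 4 each).

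Col11a1 was also lowest with entinostat alone. In vehicle it ran from 364 over a median of 512 to 644 normalized counts. The entinostat samples held 356, 316, 305 and 405. With anti-PD-1 added they held 397, 361, 491 and 434, with anti-CTLA-4 added 393 (a), 515 (1), 468 (b) and 494 (3), and in the triple combination 574 (a), 479 (b), 489 (2) and 349 (4). The entinostat group lay lowest and overlapped vehicle only at vehicle sample 2. Vehicle samples differed by cartridge, with a mean of 427 ± 55.7 (SD, n = 3) on cartridge 1 and 596 ± 45.6 (n = 3) on cartridge 2 and no overlap between them. Over groups the means were 511 ± 103, 345 ± 45.3, 421 ± 55.7, 467 ± 53.3 and 473 ± 92.6, in the order vehicle, entinostat, with anti-PD-1, with anti-CTLA-4 and triple combination.

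Col1a2 went the other way from Pdgfra. In vehicle it ran from 19.9 over a median of 38.8 to 142 normalized counts. The entinostat samples held 135, 99.8, 141 and 112. With anti-PD-1 added they held 49.4, 92.0, 92.1 and 138, with anti-CTLA-4 added 111 (a), 61.2 (1), 21.4 (b) and 28.2 (3), and in the triple combination 50.2 (a), 59.2 (b), 137 (2) and 105 (4). Vehicle fell into a low set of 4 samples and a high set of samples 2 and 3, and vehicle sample 3 was the highest of all 22 samples. The entinostat samples sat close together, with a mean of 122 ± 19.3 (n = 4) against 62.5 ± 49.6 in vehicle (n = 6). The other means were 92.9 ± 36.3 with anti-PD-1, 55.4 ± 40.8 with anti-CTLA-4 and 87.9 ± 40.6 in the triple combination (n = 4 each).

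Hspg2 was close to the background of the assay. It held 1 to 30 barcode counts per sample and exceeded every negative control of its sample in 11 of 22 samples, whereas the other 4 genes did so in all 22. In vehicle it ran from 4.43 over a median of 9.91 to 28.9 normalized counts. The entinostat samples held 37.2, 44.1, 56.5 and 22.5, with anti-PD-1 added 7.48, 14.6, 20.1 and 37.5, with anti-CTLA-4 added 23.6 (a), 6.0 (1), 3.48 (b) and 4.30 (3), and in the triple combination 7.40 (a), 13.5 (b), 9.78 (2) and 33.1 (4). Entinostat samples 1, 2 and 3 lay above all vehicle samples and sample 4 lay inside their range. The mean of the negative controls itself ran from 7.31 to 16.5 normalized counts in the entinostat samples and from 4.66 to 7.04 in vehicle, without overlap. Triple combination sample 2 rests on 1 barcode count.

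**Figure D1:**
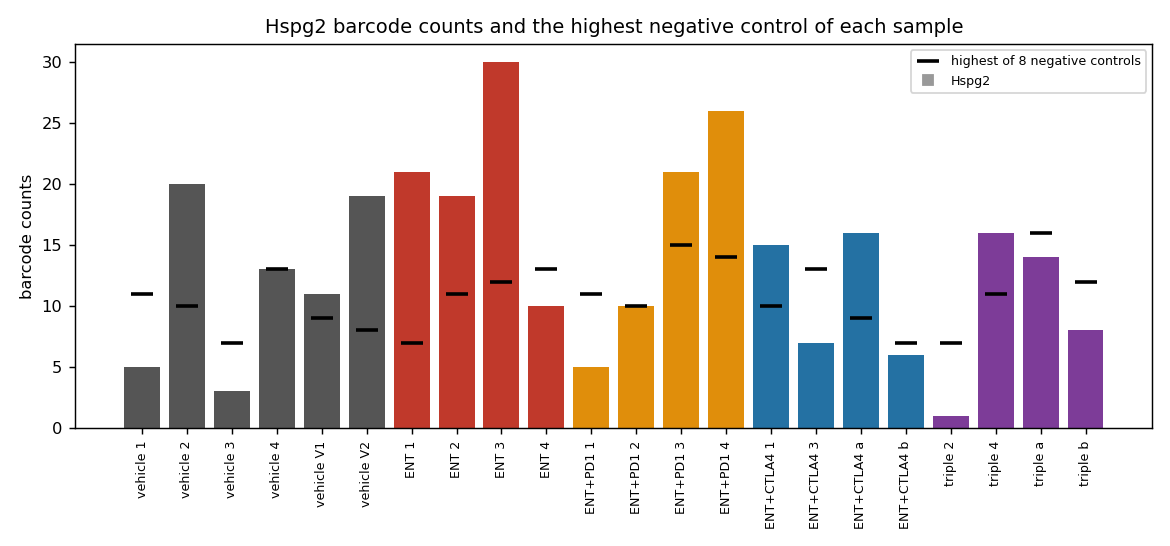
Bars give Hspg2 barcode counts in each of the 22 samples, coloured by group, and black marks the highest of the 8 negative controls in the same sample. The bar passes the mark in 11 of 22 samples, among them entinostat samples 1, 2 and 3, and lies at 1 count in triple combination sample 2.

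Timp3 was highest in entinostat alone. In vehicle it ran from 34.5 over a median of 65.8 to 145 normalized counts. The entinostat samples held 253, 246, 305 and 80.9. With anti-PD-1 added they held 89.8, 119.7, 113 and 123, with anti-CTLA-4 added 177 (a), 57.6 (1), 54.5 (b) and 52.2 (3), and in the triple combination 75.1 (a), 76.1 (b), 127 (2) and 165 (4). Entinostat samples 1, 2 and 3 were the highest 3 of all 22 samples, and sample 4 lay inside the vehicle range. Group means were 78.8 ± 41.8 in vehicle (n = 6), 221 ± 97.2 in entinostat alone, 111 ± 14.8 with anti-PD-1, 85.4 ± 61.3 with anti-CTLA-4 and 111 ± 43.7 in the triple combination (n = 4 each).

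**Figure D2:**
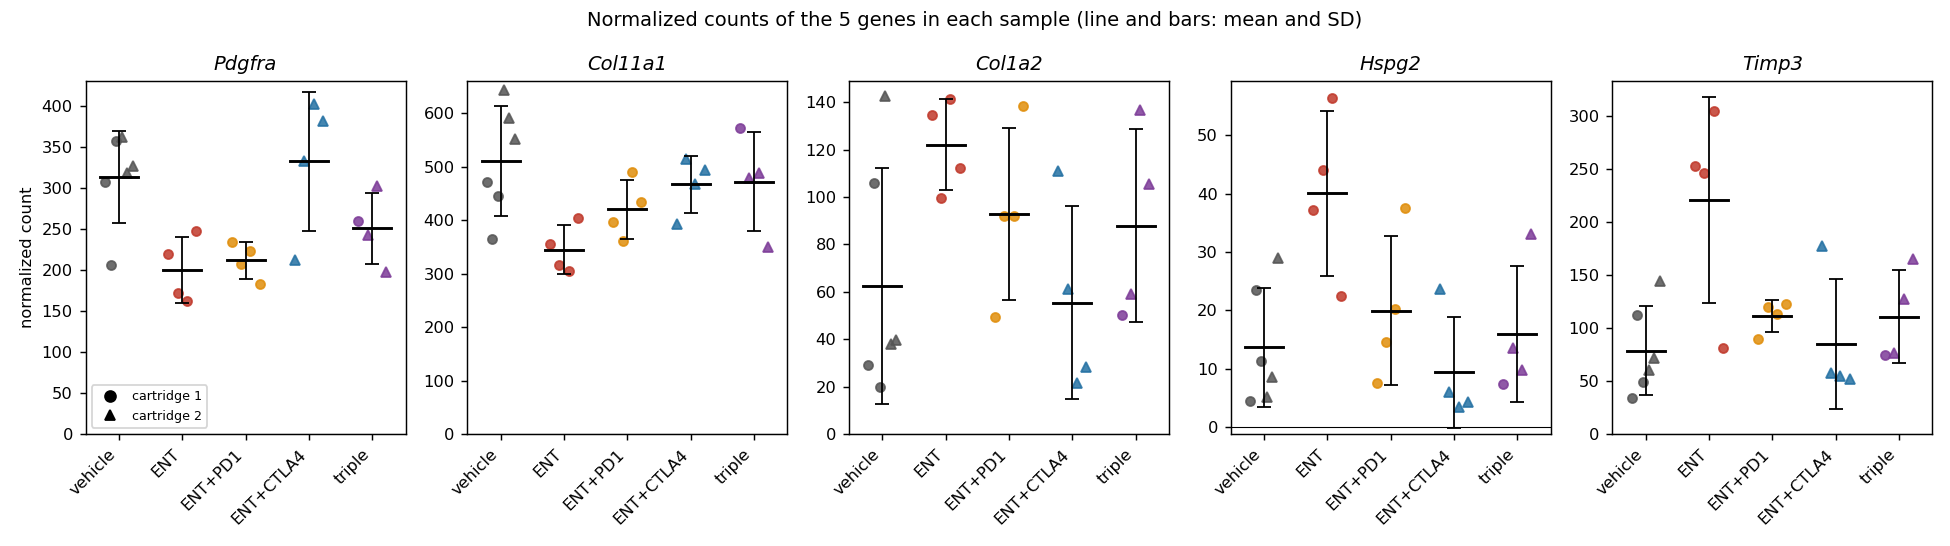
Normalized counts of the 5 genes (one panel each, linear axes that reach 0) are plotted for each sample of the 5 groups, with circles for cartridge 1, triangles for cartridge 2, and lines and bars for the mean and SD. Pdgfra and Col11a1 are lowest in entinostat alone, with means of 200.2 and 345, while Col1a2, Hspg2 and Timp3 have their highest means there, at 122, 40.1 and 221.

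The comparison of entinostat alone with vehicle asks what the histone deacetylase inhibitor does on its own. Pdgfra and Col11a1 fell and Timp3 rose, so the 5 genes did not move as a set. Hspg2 also rose, but is not counted towards that. Of the 5, 4 passed the test (limma, Benjamini-Hochberg adjusted p under 0.05, two-sided), where 40% of the 420 tested genes passed. Of the tested genes, 152 (36.2%) passed as higher and 16 (3.81%) as lower, and Pdgfra and Col11a1 are 2 of the 16. That split depends on the scale: with samples centred on their medians 95 genes passed as higher and 81 as lower, with quantile normalization 88 and 87, and with edgeR's TMM factors 57 and 132. Hspg2 entered the test only through the entinostat group, where it was high, so its call adds nothing to the count, and of the 4 genes above the limit in vehicle too, 3 passed.

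On the log2 scale of the normalized count plus 1, Pdgfra fell by 0.64 (SE 0.19, adjusted p = 0.0167), to 0.640 times its vehicle level, with 4 of 4 samples below the vehicle mean. With median centring the log2 fold change was -1.18. Within cartridge 1, where vehicle samples 1, 2 and 4 are the controls, it was -0.52 with an adjusted p of 0.0903, and without vehicle samples V1 and V2 it was -0.61 with an adjusted p of 0.0633. The call was also lost without entinostat sample 2 (adjusted p = 0.0570) or sample 3 (0.0654).

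Col11a1 fell by 0.55 (SE 0.17, adjusted p = 0.0172), to 0.684 times the vehicle level, again in 4 of 4 samples. Within cartridge 1, which leaves out the 3 vehicle samples with the highest Col11a1, the log2 fold change was -0.31 with an adjusted p of 0.171. With the cartridge as a block it was -0.45 with an adjusted p of 0.0563. Without vehicle samples V1 and V2 the adjusted p was 0.0842, without entinostat sample 2 it was 0.0531 and without sample 3 it was 0.0624. With median centring the value was -1.09, with an adjusted p of 0.0110.

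Timp3 rose by 1.48 (SE 0.43, adjusted p = 0.0144), a factor of 2.79, with 4 of 4 samples above the vehicle mean. It kept its call with the cartridge as a block (1.77, adjusted p = 0.0185), within cartridge 1 (1.76, adjusted p = 0.0301) and with median centring (0.94, adjusted p = 0.0313). Without entinostat sample 3 the adjusted p was 0.0600. Hspg2 rose by 1.71 (SE 0.57, adjusted p = 0.0232). After the mean of the negative controls was subtracted from each sample the value was 2.39 with an adjusted p of 0.0928, and with quantile normalization it was 0.73 with an adjusted p of 0.0846. With TMM factors its adjusted p was 0.116, and without entinostat sample 2, entinostat sample 3 or vehicle sample 1 its call was lost. Col1a2 did not pass, with a log2 fold change of 1.29 (SE 0.51, 95% interval 0.22 to 2.36, adjusted p = 0.0516). It passed within cartridge 1 (1.58, adjusted p = 0.0405), and when vehicle sample 3 and triple combination sample a were left out (1.59, adjusted p = 0.0149). It also passed without vehicle sample 2 (adjusted p = 0.0222) or vehicle sample 3 alone (0.0151). On the other scales Col1a2 was lower and did not pass. It stood at 0.75 with median centring (adjusted p = 0.108), 0.66 with quantile normalization (0.122) and 0.44 with TMM factors (0.336). Without vehicle samples V1 and V2 it stood at 1.13 (adjusted p = 0.150).

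**Figure D3:**
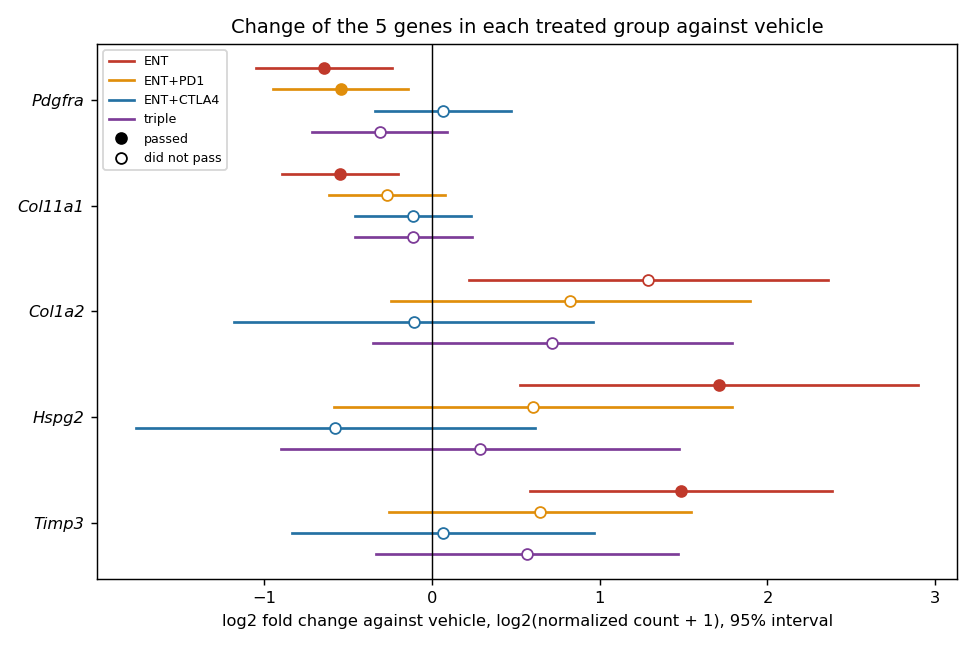
Points give the log2 fold change of each gene against vehicle for the 4 treated groups on the log2(normalized count + 1) scale, lines the 95% intervals of the limma fit, and filled points an adjusted p under 0.05. The entinostat points lie at -0.64 for Pdgfra and -0.55 for Col11a1 but at 1.48 for Timp3 and 1.71 for Hspg2, and the points with anti-CTLA-4 lie between -0.58 and 0.07 for the 5 genes.

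In entinostat plus anti-PD-1 against vehicle, Pdgfra fell by 0.54 (SE 0.19, adjusted p = 0.0496), in 4 of 4 samples. It was the 1 of the 5 genes to pass, where 21.9% of the tested genes passed, 86 higher and 6 lower (69 and 32 with quantile normalization, 60 and 22 with TMM factors). The adjusted p lies at the threshold: within cartridge 1 the value was -0.42 with an adjusted p of 0.217, none of the 420 genes passed there, and the call was lost without any 1 of 18 of the 22 samples, the samples left out in turn, with values from -0.66 to -0.48. Col11a1 stood at -0.27 (adjusted p = 0.267), Col1a2 at 0.82 (0.267), Hspg2 at 0.60 (0.475) and Timp3 at 0.65 (0.294). Each sign is that of entinostat alone, which shares the vehicle samples; Hspg2 turned to -0.09 with quantile normalization.

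In entinostat plus anti-CTLA-4 against vehicle none of the 5 genes passed, and none of the 420 tested genes did (0%), with limma or with edgeR. At an unadjusted p under 0.05, 6 of the 420 genes (1.43%) passed with limma and none of the 5. Pdgfra stood at 0.07 (95% interval -0.34 to 0.47), Timp3 at 0.06 (-0.84 to 0.96), Col1a2 at -0.11 (-1.18 to 0.96), Col11a1 at -0.11 (-0.46 to 0.23) and Hspg2 at -0.58 (-1.76 to 0.61). The signs of Col1a2 and Col11a1 turn with median centring (0.07 for each) and with quantile normalization, and that of Timp3 turns without sample a of the group (-0.36), where it is the highest sample.

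In the triple combination against vehicle none of the 5 genes passed either, nor any of the 420 (0%), with limma or edgeR, and 59 genes (14%) had an unadjusted p under 0.05 with limma, none of the 5 among them. Pdgfra stood at -0.31 (95% interval -0.72 to 0.09), Col11a1 at -0.11 (-0.46 to 0.24), Col1a2 at 0.72 (-0.35 to 1.79), Hspg2 at 0.29 (-0.90 to 1.48) and Timp3 at 0.57 (-0.33 to 1.47). All 4 samples lay below the vehicle mean for Pdgfra and above it for Timp3 and Col1a2 on the log2 scale. The sign of Hspg2 turned with quantile normalization (-0.28) and with TMM factors (-0.05).

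Adding anti-CTLA-4 to entinostat was compared through entinostat plus anti-CTLA-4 against entinostat alone. Pdgfra was higher by 0.71 (SE 0.21, adjusted p = 0.0121) and Hspg2 fell by 2.29 (SE 0.62, adjusted p = 0.00746). Timp3 fell by 1.42 (SE 0.47, adjusted p = 0.0205) and Col1a2 by 1.40 (SE 0.56, adjusted p = 0.0471), each in 4 of 4 samples. Col11a1 stood at 0.44 (95% interval 0.06 to 0.82, adjusted p = 0.0527). In all, 4 of the 5 genes passed, where 48.3% of the tested genes passed, 24 (5.71%) higher and 179 (42.6%) lower. Hspg2 again was tested only through the entinostat group, so its call adds nothing to the count. Beside it, Pdgfra, Timp3 and Col1a2 passed and Col11a1 did not. With median centring the split was 121 higher and 104 lower, with quantile normalization 112 and 86, and with TMM factors 138 and 87. This comparison shares its entinostat samples with the comparison against vehicle, so the opposite signs are not 2 separate observations.

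With median centring, quantile normalization and TMM factors Pdgfra and Hspg2 kept their calls, at 1.43 and -1.57 with median centring, where the median gene moved by -0.67 on the deposited scale. Hspg2 lost its call with the background subtracted (-2.96, adjusted p = 0.0580). Its calls on any scale are not read as support, since it was tested only through the entinostat group. Timp3 and Col1a2 lost theirs on the 3 other scales, at -0.70 (adjusted p = 0.0968) and -0.68 (adjusted p = 0.161) with median centring. Col11a1, which missed the threshold on the deposited scale, passed on each of those 3 scales. These 2 groups lay on different cartridges. With the cartridge as a block, which vehicle and triple combination samples allow, Pdgfra stood at 0.58 (adjusted p = 0.119), Hspg2 at -2.66 (0.0274), Timp3 at -1.999 (0.0274) and Col1a2 at -2.09 (0.0381). Sample a of the anti-CTLA-4 group held the group's lowest Pdgfra and highest Timp3, Hspg2 and Col1a2, and without it the values were 0.91, -1.84, -2.83 and -1.82 in that order, all with an adjusted p under 0.05. Col11a1 also passed without sample a, but not with the cartridge as a block. Without any 1 of entinostat samples 1, 2 and 3 or anti-CTLA-4 samples 1, b and 3, the calls of Timp3 and Col1a2 were lost. The call of Pdgfra was lost without anti-CTLA-4 sample b (adjusted p = 0.0510), and that of Col1a2 without 7 further samples, by adjusted p of 0.0511 to 0.0614.

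Anti-CTLA-4 was also set against anti-PD-1, both with entinostat. Pdgfra was higher with anti-CTLA-4 by 0.61 (SE 0.21, adjusted p = 0.0329), in 4 of 4 samples, and was the 1 of the 5 genes to pass, where 31% of the tested genes passed, 6 higher and 124 lower (29 and 99 with median centring, 43 and 78 with quantile normalization, 70 and 98 with TMM factors). With the cartridge as a block the value was 0.48, with an adjusted p of 0.211. The other 4 genes stood at 0.15 for Col11a1, -0.93 for Col1a2, -1.18 for Hspg2 and -0.58 for Timp3, with adjusted p from 0.167 to 0.511.

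In the other 4 comparisons none of the 5 genes passed and none of the 420 did (0%), with limma or edgeR. Anti-PD-1 added to entinostat left Pdgfra at 0.10 (95% interval -0.34 to 0.54), Timp3 at -0.84 (-1.82 to 0.15) and Hspg2 at -1.11 (-2.41 to 0.19), and 7 of the 420 genes (1.67%), none of the 5, had an unadjusted p under 0.05. The triple combination against entinostat alone gave 0.44 for Col11a1 (unadjusted p = 0.0257, adjusted p = 0.340) and -1.42 for Hspg2 (unadjusted p = 0.0335, adjusted p = 0.350), 2 of 53 such genes (12.6%). Hspg2 was tested only through the entinostat group and adds nothing to that count. The triple combination against entinostat plus anti-PD-1 gave from -0.32 for Hspg2 to 0.23 for Pdgfra, with 33 genes (7.86%) at an unadjusted p under 0.05. Against entinostat plus anti-CTLA-4 it gave -0.38 for Pdgfra (95% interval -0.82 to 0.06) and 0.86 for Hspg2 (-0.44 to 2.16), with 115 such genes (27.4%), none of the 5 in either comparison. Without anti-CTLA-4 sample a, 191 of the tested genes and 1 of the 5 passed in the latter. The difference between the anti-CTLA-4 effect with and without anti-PD-1 was tested as an interaction and passed for none of the 5, with Hspg2 at 1.97 (unadjusted p = 0.0370, adjusted p = 0.252) and Timp3 at 1.34 (adjusted p = 0.255).

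Over the 5 groups, the order of mean log2 levels of Pdgfra was anti-CTLA-4 with entinostat at 8.34, vehicle at 8.27, triple combination at 7.96, anti-PD-1 with entinostat at 7.73 and entinostat alone at 7.63. No neighbours in that order differed past the threshold. For Timp3 the order was entinostat alone at 7.64, with anti-PD-1 at 6.80, triple combination at 6.72, with anti-CTLA-4 at 6.22 and vehicle at 6.16, again with no neighbours that passed. For Col1a2 the order was entinostat alone at 6.93, with anti-PD-1 at 6.46, triple combination at 6.36, vehicle at 5.64 and with anti-CTLA-4 at 5.53, and no neighbours passed. Hspg2 averaged 5.29 in entinostat alone, and its means in the other 4 groups lay below the background limit, so their order is not read. Col11a1 ran from 8.98 in vehicle to 8.43 in entinostat alone, with the 3 antibody groups between. A moderated F test for any difference among the 5 groups passed for Pdgfra (adjusted p = 0.0259), where 33.1% of the tested genes passed, and gave adjusted p of 0.0552 for Hspg2, 0.0710 for Timp3, 0.0996 for Col11a1 and 0.164 for Col1a2.

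The 5 genes separated in the same way from sample to sample. Over 22 samples the log2 levels of Pdgfra and Col11a1 had r = 0.77 (rho = 0.77, permutation p = 5e-05 and 0.0001), and Hspg2 and Timp3 had r = 0.88 (rho = 0.87, permutation p = 1e-05 for both, the smallest 100000 resamples can give). Pdgfra ran against Hspg2 with r = -0.82 (rho = -0.83, permutation p = 1e-05 for both) and against Timp3 with r = -0.78 (rho = -0.79, permutation p = 3e-05 and 4e-05). Of the 10 pairs, 9 had an adjusted permutation p under 0.05 by r and by rho, and Col1a2 with Col11a1 did not (r = -0.40, permutation p = 0.0649). Hspg2 held 1 to 30 barcode counts and exceeded every negative control of its sample in 11 of 22 samples. The part of the background and of the scaling in its r values was not tested. Samples share their group, cartridge and scaling, so they are not independent draws. The same test was not run on pairs of other genes of the panel. Whether 9 of 10 pairs is more than other panel genes would give was therefore not tested, and the count is not read as special to these 5 genes.

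Without the 2 samples farthest from the median of the first gene, Pdgfra and Col11a1 had r = 0.82, Hspg2 and Timp3 0.85, Pdgfra and Hspg2 -0.77, and Pdgfra and Timp3 -0.75. Within cartridge 1 these were 0.65, 0.87, -0.79 and -0.87 (12 samples) and within cartridge 2 they were 0.73, 0.92, -0.82 and -0.76 (10 samples). With the group means removed they were 0.69, 0.82, -0.75 and -0.66, so the opposition was also present among samples of the same treatment. With median centring they were 0.94, 0.78, -0.72 and -0.65. The values with the group means removed include vehicle sample 2 and anti-CTLA-4 sample a, which lay far from their groups. They were not recomputed without these samples. Col1a2 with Hspg2 and with Timp3 had r = 0.63 and 0.69, but 0.33 and 0.36 with median centring. Within cartridge 1 these pairs had 0.83 and 0.81, and within cartridge 2 they had 0.38 and 0.51. With median centring Col1a2 with Pdgfra had r = -0.66, and Col11a1 with Hspg2 and with Timp3 had -0.69 and -0.65.

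**Figure D4:**
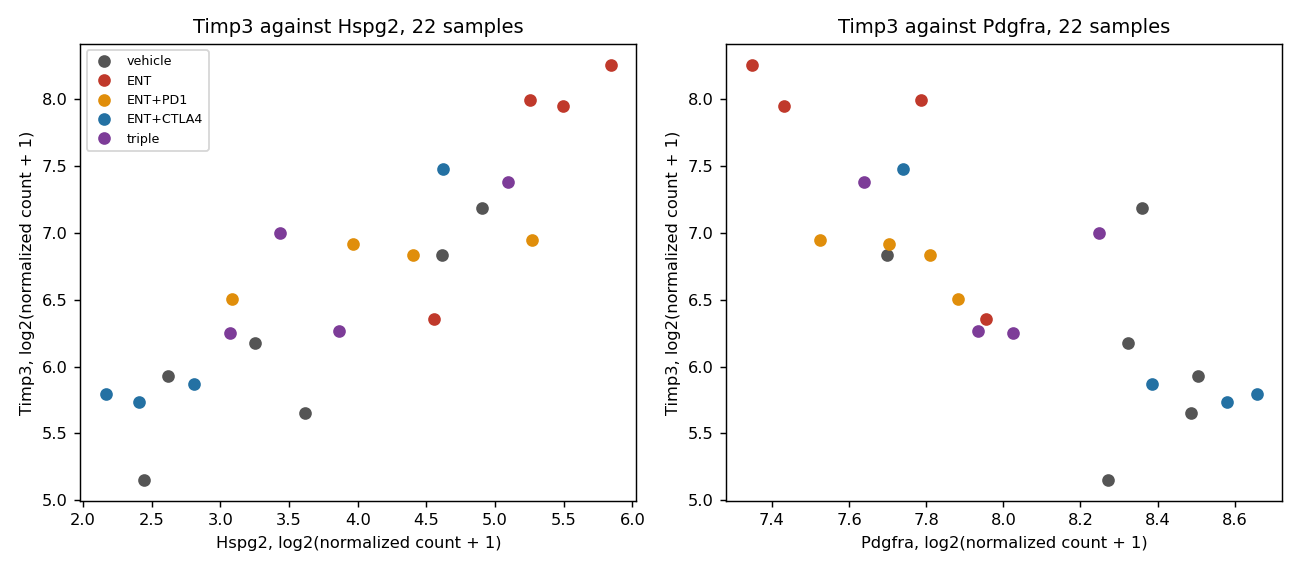
Each point is 1 of 22 samples, coloured by group, on log2(normalized count + 1) axes, with Timp3 against Hspg2 on the left and Timp3 against Pdgfra on the right. Timp3 rises with Hspg2 (r = 0.88) and falls as Pdgfra rises (r = -0.78). Hspg2 exceeded every negative control of its sample in 11 of 22 samples.

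The 3 tested genes most like Pdgfra over the 22 samples by Pearson's r were Dusp6 (0.91), a phosphatase of ERK kinases, Cdh1 (0.89), the E-cadherin of epithelial cells, and Lrp5 (0.88), a co-receptor of Wnt ligands. Those most like Col11a1 were Cdh1 (0.81), Dusp6 (0.79) and Hist2h2aa1 (0.78), a histone gene. Pdgfra ran against Col3a1, a chain of type III collagen and a fibroblast product, with r = -0.85, and against the leukocyte genes S100a9 and Ptprc, which encodes CD45, with r = -0.91 and -0.86. The genes most like Col1a2 were Man2b1 (0.87), a lysosomal mannosidase, Socs3 (0.87), an inhibitor of cytokine signalling, and Il6ra (0.87), the interleukin-6 receptor. Col1a2 and Col3a1 had r = 0.84.

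Those most like Hspg2 were Timp3 (0.88), Cav1 (0.87), a coat protein of caveolae, and Birc2 (0.87), an inhibitor of apoptosis. Those most like Timp3 were Cav1 (0.94), Il6 (0.94), a cytokine, and Cd34 (0.94), a surface glycoprotein of endothelial and progenitor cells. Timp3 with Ptprb and Sele, which mark endothelial cells, had r = 0.93 and 0.89, and with Col3a1 it had r = 0.90. With median centring the 3 genes of Timp3 were the same, and each of the other members kept 2 of its 3. With Yap1, the other panel gene of the epithelial list, Pdgfra and Col11a1 had r = 0.66 and 0.67 (0.93 and 0.92 with median centring). Col1a2, Hspg2 and Timp3 had -0.27, -0.39 and -0.36 with Yap1 (-0.56, -0.60 and -0.53 with median centring). Over these samples, then, the 5 genes did not vary as one fibroblast set. Pdgfra and Col11a1 went with Cdh1, less closely with Yap1 on the deposited scale, and against Col3a1. Col1a2, Hspg2 and Timp3 went with Col3a1. They also went with the leukocyte genes: r with S100a9 and Ptprc was 0.74 and 0.78 for Col1a2, 0.70 and 0.74 for Hspg2 and 0.71 and 0.74 for Timp3. With median centring these values were 0.49 and 0.54 for Col1a2, 0.48 and 0.52 for Hspg2 and 0.42 and 0.43 for Timp3. For Pdgfra they were -0.86 and -0.90 on that scale.

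**Figure D5:**
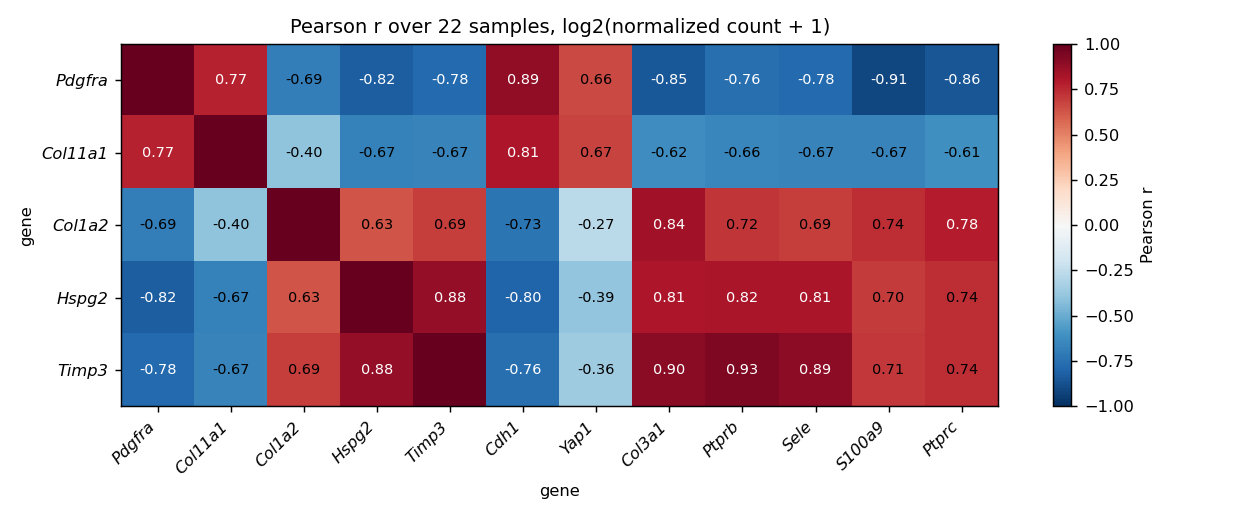
Cells give Pearson's r over 22 samples between each of the 5 genes (rows) and each other gene (columns) on the log2(normalized count + 1) scale, red above 0 and blue below. Pdgfra and Col11a1 have r above 0 with Cdh1 (0.89 and 0.81) and below 0 with Col3a1 (-0.85 and -0.62), and Col1a2, Hspg2 and Timp3 show the reverse.

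Of 10 fibroblast markers in a written list, 4 are on the panel (Pdgfra, Pdgfrb, Col1a2 and Col3a1) and 3 were tested. In entinostat alone against vehicle Col3a1 rose by 1.70 (SE 0.63, adjusted p = 0.0390), from 148 ± 120.1 (n = 6) to 436 ± 220.3 (n = 4), and Pdgfra fell, with a median of 1.29 beside 0.50 for all tested genes. Of all tested genes 40% passed in that comparison. Pdgfrb, the second receptor of the family, had too low a mean for the test in each group and averaged 13.4 ± 6.24 in vehicle and 26.7 ± 9.63 in entinostat alone. The summed level of the 4 markers ran from 417 to 699 in vehicle and from 539.6 to 978 in entinostat alone. Of 4 genes of the PDGF family on the panel, 3 were tested and Pdgfra alone passed, while the ligands Pdgfa and Pdgfb stood at -0.23 and -0.21 in that comparison.

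Of 7 listed collagens on the panel, 6 were tested. In entinostat alone against vehicle Col3a1 rose and Col11a1 fell, where 40% of all tested genes passed. The list median was 0.70 beside 0.50 for all tested genes, and the chains of basement membrane collagen IV stood at 0.06 for Col4a1 and 0.11 for Col4a2. Col14a1, a collagen that decorates fibrils, stood at 1.57 (adjusted p = 0.0871). Col10a1, Col12a1 and Col15a1 were also looked at, and means alone are given for Col10a1 and Col12a1. Col12a1 averaged 50.5 normalized counts in vehicle, 69.3 in entinostat alone and 46.2 in entinostat plus anti-CTLA-4. Col10a1 averaged 5.33, 2.525 and 2.27 in that order. Col15a1 was looked at after its values were seen. It stood at 1.40 in entinostat alone against vehicle (adjusted p = 0.0855). In entinostat plus anti-CTLA-4 against entinostat alone it stood at -1.79 (adjusted p = 0.0440). Col1a2 was the 1 of the 6 that fell in the latter comparison, where 42.6% of all tested genes fell, and none of the 6 passed in any other comparison. Of 4 matrix glycoproteins and proteoglycans tested, Hspg2 was tested only through the entinostat group and is no support for the list. None of the other 3 passed in entinostat alone against vehicle, and Fn1 (fibronectin), Lamb2 (a laminin chain) and Tnc (tenascin C) stood at 0.64, -0.13 and -0.34.

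Of 14 proteases and inhibitors on the panel, 12 were tested. In entinostat alone against vehicle 5 rose and 1 fell, where 40% of all tested genes passed, so the share is near that of the panel, and the median was 0.80 beside 0.50 for all tested genes. Beside Timp3 those that rose were Mmp9 (1.48, adjusted p = 0.0108), a gelatinase stored in neutrophil granules, Adam8 (1.28, 0.0206), a metalloproteinase of leukocytes, Plaur (1.07, 0.0334), the urokinase receptor, and Adamts1 (0.80, 0.0274), a secreted metalloproteinase. Plau, urokinase itself, fell by 0.60 (adjusted p = 0.0154). With anti-PD-1 added, Mmp9 rose by 1.42 against vehicle (adjusted p = 0.0249). In entinostat plus anti-CTLA-4 against entinostat alone 7 fell, Timp3 among them, and Plau was higher by 0.59 (adjusted p = 0.0189), where 42.6% of all tested genes fell, with a list median of -1.23 beside -0.67 for all tested genes. Against entinostat plus anti-PD-1, 3 of the 12 fell with anti-CTLA-4 (Mmp9, Adam8 and Plaur), where 124 of the 420 tested genes fell.

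Markers of other cell types moved with these results, and their part in them was not tested. The counts stand beside 36.2% of all tested genes passing as higher and 3.81% as lower on the deposited scale, a split that became 95 higher and 81 lower genes with median centring and 57 and 132 with TMM factors. In entinostat alone against vehicle 3 of 4 tested endothelial genes rose (Selp, Sele and Ptprb), and the summed level of the 4 ran from 23.02 to 250.4 in vehicle and from 162 to 751 in entinostat alone. Of 8 tested neutrophil genes all 8 rose, with sums over 12 genes of 5791 to 24622 in vehicle and 20854 to 40574 in entinostat alone, and all 5 pan-leukocyte genes rose, with sums of 848 to 3804 and 3391 to 5132. Of 2 epithelial genes Cdh1 fell by 0.41 (adjusted p = 0.0418), with sums of 1020 to 1577 in vehicle and 928 to 1115 in entinostat alone. None of 5 monocyte and macrophage genes passed (sums 388 to 2515 and 791 to 2569), 1 of 2 dendritic cell genes rose (sums 80.6 to 856 and 279 to 752), and the 2 pericyte and smooth muscle genes on the panel were below the limit (sums 8.58 to 34.1 and 34.8 to 56.5). The 1 B cell gene on the panel summed to at most 19.6 in any sample, and no gene of the T and NK cell list is on the panel.

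In entinostat plus anti-CTLA-4 against entinostat alone the same lists moved in the other direction, where 42.6% of all tested genes fell on the deposited scale (104 genes lower and 121 higher with median centring). All 8 neutrophil, all 5 pan-leukocyte and 3 of 4 endothelial genes fell and Cdh1 was higher by 0.46 (adjusted p = 0.0348), with endothelial sums of 24.9 to 461 and neutrophil sums of 3472 to 21896 with anti-CTLA-4. Single samples did not all follow these lists. Sample a of the anti-CTLA-4 group, with the lowest Pdgfra, had the highest endothelial and neutrophil sums of its group, at 461 and 21896, and the lowest epithelial sum, 987. Vehicle sample 2, with the lowest Pdgfra and Col11a1 of vehicle, had the highest endothelial and neutrophil sums of vehicle, at 250.4 and 24622. Vehicle sample V2, with the highest Timp3 and Hspg2 of vehicle, had an endothelial sum of 233 but the lowest neutrophil sum of vehicle, 5791. Vehicle sample 3, with the highest Pdgfra and Col11a1 of vehicle, had an endothelial sum of 42.9 and a neutrophil sum of 11418, second to sample 2.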

How the data were processed

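Total RNA of isolated G-MDSCs was measured on the nCounter system with the mouse myeloid panel, per the labels' protocols; RNA with an A260/280 under 1.8 was excluded. The deposited values are a signal, normalized counts on a linear scale, made by the authors. How they were normalized is not given in the sources used here. Limma is named in the submitters' processing notes, with neither role nor version. The geometric mean of the 20 housekeeping genes ran from 172 to 194 and the median endogenous gene from 23.6 to 78.2. Values up to 200 were 100% whole multiples, within 0.1 count, of a step per sample, which gave barcode counts for depth and for edgeR 4.0.16.

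Log2(normalized count + 1) entered a limma fit (limma 3.58.1, R 4.3.3) of 5 group means to 22 samples, with 17 residual degrees of freedom and a prior of 2.14. It gave 10 contrasts, an interaction and a moderated F test. Genes were kept where the log2 mean of at least 1 group exceeded 29.3 normalized counts, a limit 2 SD above the mean log2 value of the 8 negative controls; 235 genes were left out. P-values were Benjamini-Hochberg adjusted over the 420 genes, and called means under 0.05. Correlations used log2 values and permutation with 100000 resamples, adjusted over 10 pairs (Python 3, SciPy).

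The members and lists were chosen with earlier results of these data known. Named are the 5 members, up to 4 called genes of smallest p per list, and the 3 genes of highest r with each member; other list members are given as values and were chosen after these were seen. The vehicle group takes in V1 and V2 beside the numbered samples. Columns with a repeated name give the group only and are samples a and b. No column was left unused. Every pair of samples differed by more than counting noise, with a chi-square per degree of freedom of at least 2.52. Same-numbered samples did not deviate together, so no pairing was used. The scripts were tested on simulated data. Alternatives covered scaling, count models, pseudocount, filter, background, weights, cartridge, replicate block and samples left out.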

Additional observations from a re-analysis of the deposited data

Results flagged for a closer look

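Of 25 sets of 1 gene in 1 group, 3 held a sample whose gap to the nearest other sample was large for the range of its group (Dixon's test at 95%), where chance gives about 1 in 20. Pdgfra in vehicle sample 2, at 206.87 normalized counts, was the lowest of 6, and the next lowest was 308. Hspg2 in entinostat plus anti-CTLA-4 sample a, at 23.63, was the highest of 4, and the next was 6.0. Timp3 in the same sample, at 177.26, was the highest of 4, and the next was 57.6.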

How the results depend on the processing

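The counts of the 5 genes called were recomputed under each alternative, and those that moved by over 1.5 times are given here; the cause was not tested. Entinostat alone against vehicle (4) had 2 with the replicate block and 2 without vehicle samples V1 and V2. Entinostat plus anti-PD-1 against vehicle (1) had 0 with median centring, edgeR on the deposited scaling, no filter, background subtracted, the cartridge block, within cartridge 1, the replicate block, the numbered samples with no block, without V1 and V2, with vehicle sample 3 and triple combination sample a left out together, and without triple combination sample 2, and 3 with sample weights. Entinostat plus anti-CTLA-4 against entinostat alone (4) had 2 with background subtracted. Entinostat plus anti-CTLA-4 against entinostat plus anti-PD-1 (1) had 0 with no filter, the cartridge block and the replicate block, 4 with sample weights and 2 without anti-CTLA-4 sample a. Sample weights gave 1 for the triple combination against vehicle (0), 3 against entinostat alone (0) and 2 against entinostat plus anti-CTLA-4 (0), the last being 1 without anti-CTLA-4 sample a. The F test (1) had 2 with median centring, quantile normalization, TMM factors, a pseudocount of 10 and with vehicle sample 3 and triple combination sample a left out, 5 with sample weights, 0 with the cartridge block and without V1 and V2, 3 with the numbered samples and no block, and 4 without anti-CTLA-4 sample a. With each sample left out in turn, the counts ran from 0 to 5 for entinostat alone against vehicle (1 without entinostat sample 2 and 0 without sample 3), 0 to 1 for entinostat plus anti-PD-1 against vehicle (0 without any 1 of 18 samples), 1 to 5 for entinostat plus anti-CTLA-4 against entinostat alone (2 without any 1 of entinostat samples 1, 2 and 3 and anti-CTLA-4 samples 1 and 3, and 1 without b), 0 to 2 against entinostat plus anti-PD-1 (0 without anti-PD-1 sample 2 or 4 or anti-CTLA-4 sample 1, b or 3), 0 to 1 for the triple combination against entinostat plus anti-CTLA-4, and 0 to 4 for the F test. The F test count was 0 without entinostat sample 2 or 3, anti-PD-1 sample 4 or anti-CTLA-4 sample 1, b or 3, was 2 without entinostat sample 4, anti-PD-1 sample 1 or triple combination sample a or 4, 3 without vehicle sample V2 and 4 without vehicle sample 2. The numbered samples with no block, the fit without triple combination sample 2 and the fit without anti-CTLA-4 sample a as a named alternative were chosen after seeing the data.

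Signs turned only for values that passed no test. For entinostat plus anti-CTLA-4 against vehicle, Pdgfra turned to -0.0543 within cartridge 2. Col1a2 turned to 0.0696 with median centring, 0.14 with quantile normalization, 0.0506 with sample weights and 0.20 with vehicle sample 3 and triple combination sample a left out. Col11a1 turned to 0.0677 with median centring, 0.00490 with quantile normalization, 0.00637 with TMM factors, 0.0167 with the replicate block and 0.10 with the numbered samples and no block. Timp3 turned to -0.28 with sample weights, -0.23 with the cartridge block, -0.21 within cartridge 2, -0.0913 with the replicate block, -0.0899 with the numbered samples and no block, and -0.36 without anti-CTLA-4 sample a. For entinostat plus anti-PD-1 against vehicle, Hspg2 turned to -0.0857 with quantile normalization. For the triple combination against vehicle, Hspg2 turned to -0.28 with quantile normalization, -0.0489 with TMM factors, -0.33 with background subtracted and -0.49 within cartridge 1, where that group has 1 sample that is assumed to vary like the others, and Col11a1 turned to 0.43 there. With samples left out in turn, values ran from -0.0482 to 0.27 for Pdgfra, -0.53 to 0.24 for Col1a2 and -0.36 to 0.27 for Timp3 in entinostat plus anti-CTLA-4 against vehicle, and from -0.21 to 0.0273 for Col11a1 and -0.12 to 0.55 for Hspg2 in the triple combination.

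Over all 420 genes, counts of calls that moved by over 1.5 times were 168 against 54 for entinostat alone against vehicle without V1 and V2. For entinostat plus anti-PD-1 against vehicle the 92 calls became 33 with edgeR on the deposited scaling, 43 with no filter, 3 with the cartridge block, 0 within cartridge 1 and 0 without V1 and V2. For anti-CTLA-4 against anti-PD-1, both with entinostat, the 130 became 69 with edgeR on the deposited scaling, 2 with the cartridge block and 207 without anti-CTLA-4 sample a, and for the F test the 139 became 81, 0 and 211 in that order. The triple combination, with 0 in each comparison, had 6 against vehicle with the replicate block and 36 with the numbered samples and no block, up to 3 against entinostat alone outside sample weights, and against entinostat plus anti-CTLA-4 it had 73 with the replicate block, 214 with the numbered samples and no block, 35 with vehicle sample 3 and triple combination sample a left out and 191 without anti-CTLA-4 sample a. Sample weights gave 298, 226, 18 and 126 against vehicle in the order of the groups, 320, 106 and 3 for anti-CTLA-4, both antibodies and anti-PD-1 against entinostat alone, 288 for anti-CTLA-4 against anti-PD-1, 207 for the triple combination against entinostat plus anti-CTLA-4 and 317 for the F test.

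Replicate numbers did not pair the samples: over 24 same-numbered pairs from different groups the deviations from group means correlated from -0.54 to 0.53, with a median of -0.07, and 10 were over 0.1, beside -0.72 to 0.66 and -0.05 over 76 pairs of different numbers. The replicate block covers the numbered samples only. The stricter filter, 366 genes, leaves out Hspg2, whose 1 to 30 barcode counts limit its precision, and triple combination sample 2, at 23296 counts, limits that of its group.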
